A study of Mus musculus with 8 samples.

Results

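Regions with a listed H3K27me3 peak in a single astrocyte library, AstroEGFR 1, and with none in the other peak lists of the series are described here. The peak lists of 5 libraries were pooled and peaks that overlapped or touched were merged into 99646 regions. Of these, 6405 held a peak of AstroEGFR 1 and none of AstroEGFR 3, PT 1, PT 3 or PT 4, and are termed AstroEGFR 1-only regions. They were chosen by the presence and absence of peaks in these same lists, so their restriction to AstroEGFR 1 is not a finding, and no test is given for it. Each was made of 1 peak, and together they held 18.8% of the 34021 peaks of AstroEGFR 1 and 5.90 Mb of the 50.1 Mb that its peaks covered.

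AstroEGFR cells, replicates 1 and 3, were astrocytes from the cerebral cortex of C57BL/6 mice at postnatal day 5, null for p16/p19 (Ink4a/Arf) and carrying a retroviral vector for human EGFRvIII, a constitutively active form of the EGF receptor. The PT group (replicates 1, 3 and 4) consisted of glioma propagating cells, cultured from C57BL/6 tumours grown in CD1 Nude mice after transplantation of such astrocytes, so that both stages share the gene deletion and the receptor. All cells were used below passage 10. Astrocytes grew in medium with serum and PT cells in serum-free medium with EGF and FGF2, and stage and medium cannot be told apart. Tumours were raised from several astrocyte batches, but the labels do not say that equal replicate numbers, such as AstroEGFR 1 and PT 1, mark a batch and its tumour. AstroEGFR 1 is 1 culture, and no second culture supports the regions described. Peak lists hold no expression values and no gene annotation of their build was used, so the cell type could not be checked against its markers.

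H3K27me3 is trimethylation of lysine 27 of histone H3, set by the methyltransferases of Polycomb repressive complex 2. The complex can bind chromatin that already carries the mark and extend it to neighbouring nucleosomes, so the mark often forms broad domains over silent developmental genes. In the brain, Polycomb silencing takes part in the switch of progenitors from making neurons to making astrocytes.

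The series was designed to compare the distribution of the mark before and after tumour formation. The lists held between 3722 peaks (AstroEGFR 3) and 66279 peaks (PT 4), and the number of reads behind each is unknown. AstroEGFR 3 and PT 3 held 0 peaks on unplaced sequences, where AstroEGFR 1 held 179, PT 1 held 194 and PT 4 held 236. Lack of a peak means only that the signal fell short of the list's threshold. The length of the other lists therefore bears on membership, and the number of regions with shortened lists is given after the results. On unplaced sequences the 13 regions were in effect compared with PT 1 and PT 4 alone.

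AstroEGFR 1-only regions were mostly weak and narrow peaks of their list. The score that MACS gave each peak, which rises as the p-value against the local background falls, had a median of 93.95 in these regions and of 151.6 in the 27616 other AstroEGFR 1 peaks. Their median width was 818 bp, with 10% under 642 bp and 10% over 1311 bp, against 1115 bp for the other peaks. The widest spanned 4980 bp, whereas the widest of the other peaks spanned 89275 bp. Widths of 2 kb or more were found in 133 of the regions (2.08%) and in 5326 of the other peaks (19.3%). Wide single peaks were therefore nearly absent, as follows in part from the rule, since a wide region has more room to meet a peak of another list. An AstroEGFR 1 peak shared with other lists lay within 1 kb of 20.9% of the regions and within 5 kb of 47.3%. A narrow width thus does not show that a region stood alone.

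Score and width were tied, and most of the difference in width went with the score. AstroEGFR 1 peaks were divided by score into 10 bins of nearly equal size, from bin 1 (lowest) to bin 10 (highest). In bin 1 the median width of AstroEGFR 1-only regions was 675 bp and that of the other peaks 683 bp. In bin 9 these medians were 2060 and 2076 bp. In bin 10 they were 2960 and 3648 bp, and only there did the gap exceed 100 bp. The regions had the lower median in 9 of the 10 bins.

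The share of peaks without a partner fell with score. It was 37.6% in bin 1 of the AstroEGFR 1 list, 21.4% in bin 5, 7.29% in bin 8 and 1.26% in bin 10. The lowest 3 bins held 3524 of the regions, or 55.0%. Scores at or above the median of the whole list, 135.01, were reached by 1343 regions (21.0%), and scores of bin 10, 484.91 or more, by 43 (0.671%). Scores below 75.69, the lowest score in the PT 3 list and the highest such floor among the other lists, were held by 1185 regions (18.5%).

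**Figure D1:**
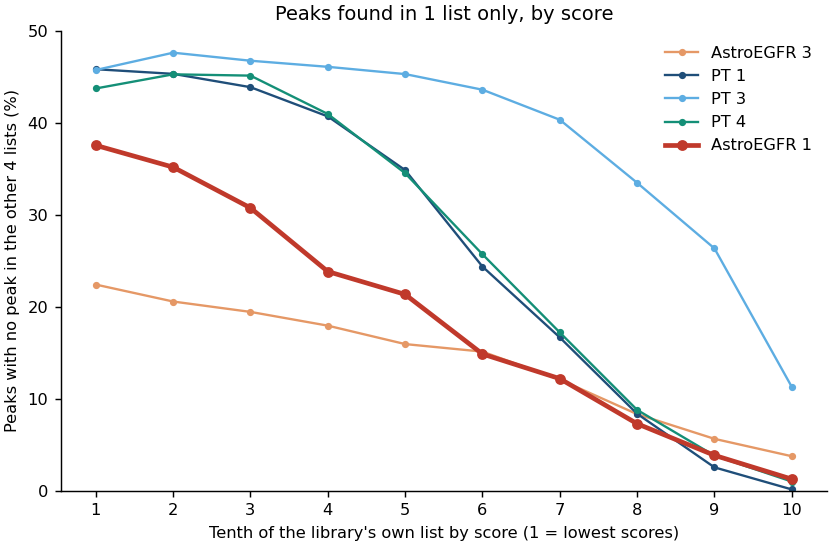
Share of each library's peaks (%, vertical axis) that had no peak in the other 4 lists, in 10 bins of the library's own list in order of score (horizontal axis, bin 1 holds the lowest scores). The line of AstroEGFR 1 falls from 37.6% to 1.26%, and that of PT 3 stays above 40% up to bin 7.

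Every library had such regions of its own. AstroEGFR 1-only regions held 18.8% (Wilson 95% CI 18.4 to 19.2) of their list, whereas the share was 14.1% in AstroEGFR 3 and, among tumours, 26.3% in PT 1, 38.7% in PT 3 and 26.6% in PT 4. These intervals cover counting error only, because neighbouring peaks are not independent, and lists of different length face different numbers of competing peaks. In the 10% of each list with the highest scores, 14 peaks of AstroEGFR 3 (3.75%), 9 of PT 1 (0.139%), 453 of PT 3 (11.3%) and 66 of PT 4 (0.996%) lacked a partner, and the 1.26% of AstroEGFR 1 lay inside this range. The median width of regions found in 1 list only was 679 bp for AstroEGFR 3 and between 634 and 639 bp for the PT lists, below the 818 bp of AstroEGFR 1. The other peaks of AstroEGFR 1 were also wider than the other peaks of these lists, whose medians lay between 742 and 956 bp. With 1 library behind each set, no difference between the sets was tested.

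Most AstroEGFR 1-only regions lay close to a tumour peak. The nearest peak of any PT list was at a median of 1842 bp, and 4527 regions (70.7%) had a PT peak within 5 kb. It lay within 500 bp of 1505 regions (23.5%) and within 1 kb of 2412 (37.7%). Within 20 kb were 5704 (89.1%), and 150 regions (2.34%) lay more than 100 kb away. The distances ran from 1 bp to 1390020 bp. Such closeness was not particular to these regions. A peak of any other list lay within 5 kb of 71.0% of them, and of 59.1% of the regions found only in AstroEGFR 3, 76.0% of those only in PT 1, 49.7% of those only in PT 3 and 66.6% of those only in PT 4.

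By library, the nearest peak of PT 1 lay at a median of 4469 bp, that of PT 4 at 4811 bp and that of PT 3 at 10190.5 bp. PT 1 had a peak within 5 kb of 52.4% of the regions, PT 4 of 50.8% and PT 3 of 34.4%. The order followed the covered length of the lists, which was 87.9 Mb for PT 1, 84.6 Mb for PT 4 and 39.2 Mb for PT 3. The nearest PT peak belonged to PT 1 in 2575 cases, to PT 4 in 2216 and to PT 3 in 1614. AstroEGFR 3, the other astrocyte library, had a peak within 5 kb of 244 regions (3.81%) and stood at a median of 268044.5 bp. Its list covered 3.48 Mb, so proximity to AstroEGFR 3 could hardly be assessed.

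**Figure D2:**
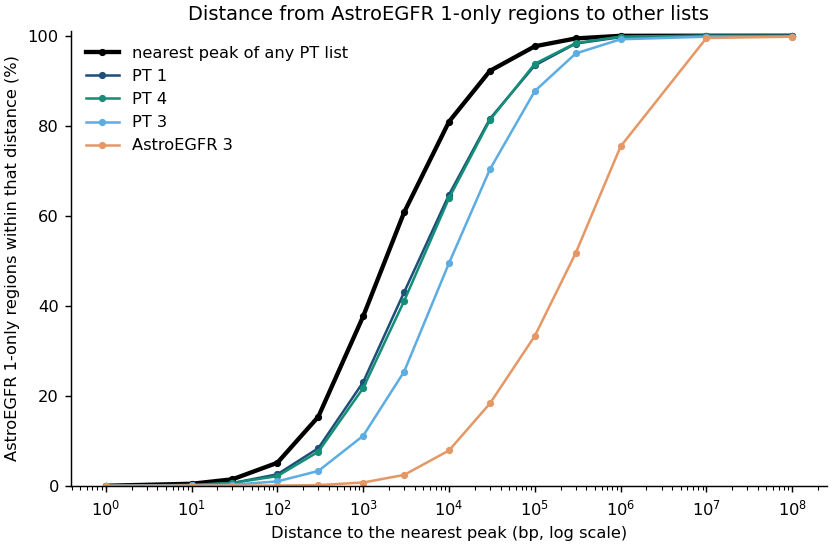
Share of the 6405 AstroEGFR 1-only regions (%, vertical axis) that had a peak of the named list within the distance on the horizontal axis (bp, log scale). The black line, for the nearest peak of any PT list, reaches 70.7% at 5 kb, the lines of PT 1 and PT 4 nearly coincide, and that of AstroEGFR 3 lies far to the right.

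The regions were also sorted by their place relative to PT peaks. A group of 2067 (32.3%) lay between PT peaks, with one on either side within 5 kb. A further 2460 (38.4%) had a PT peak within 5 kb on 1 side only, 1728 (26.98%) were 5 to 100 kb from the nearest, and 150 were farther. The flanking peaks could come from different PT libraries, so a place between them does not show a stretch marked in any 1 tumour.

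Median strength hardly changed with this position. The median score was 93.72 between PT peaks, 95.8 beside them, 91.6 at 5 to 100 kb and 94.09 beyond 100 kb, and the median widths ran from 801 to 828 bp. The 43 regions of bin 10 were divided into 7, 23, 11 and 2 over these classes. These were 0.339%, 0.935%, 0.637% and 1.33% of the class, a share lowest between PT peaks, and the differences were not tested. The class medians thus lay within a narrow range, highest beside a PT peak and lowest at 5 to 100 kb.

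The PT regions next to AstroEGFR 1-only regions often carried an AstroEGFR 1 peak themselves. The 3 PT lists merged into 96214 regions, of which 24.6% met a peak of AstroEGFR 1. For the 4527 AstroEGFR 1-only regions within 5 kb of a PT peak, the nearest PT region met one in 2172 cases (48.0%). Of the 2067 regions between PT peaks, 546 (26.4%) had such a shared region on both sides and 651 (31.5%) on neither. At 5 to 100 kb from PT the nearest PT region met an AstroEGFR 1 peak in 35.9% of cases, and beyond 100 kb in 22.7%. PT regions picked for lying near an AstroEGFR 1 peak are not a like sample of all PT regions. No comparison around other AstroEGFR 1 peaks was made, so the shares are descriptive only. Another AstroEGFR 1 peak, of those shared with other lists, lay within 5 kb of 79.1% of the regions between PT peaks, of 55.2% of those beside them and of 2.03% of those at 5 to 100 kb. The low value in the last class follows largely from its definition, because a shared AstroEGFR 1 peak nearly always meets a PT peak, and nothing is read from it.

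The surroundings were compared with those of other AstroEGFR 1 peaks of like score. For this, the 8289 other peaks with scores from 78.21 to 127.34, the middle 50% of the AstroEGFR 1-only regions, were used. Positions 50 kb from the centre of an AstroEGFR 1-only region lay inside a PT 1 peak in 9.43% of cases, and positions 50 kb from the other peaks in 16.3%. For PT 4 the values were 8.62% and 15.7%, and for PT 3 4.50% and 6.83%. For AstroEGFR 1 itself they were 9.19% and 10.4%. The values for the PT lists were lower around AstroEGFR 1-only regions, and those for AstroEGFR 1 lay closer together.

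Nearer the centre the contrast was wider. At 5 kb the values were 11.3% and 32.5% for PT 1, 10.2% and 30.8% for PT 4, 4.93% and 12.3% for PT 3 and 16.5% and 21.3% for AstroEGFR 1. AstroEGFR 3 gave 0.281% and 1.20%, so that this list added little around either kind. Both sets were defined by the peaks measured here. The rule sets the PT lines to 0 at the centre of AstroEGFR 1-only regions, while the other peaks met another list by definition, with 70.9% of their centres in a PT 1 peak and 69.5% in a PT 4 peak. Wide and clustered PT peaks carry this into the flanks, so the contrast is a description of how the sets were chosen and not an independent measure.

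**Figure D3:**
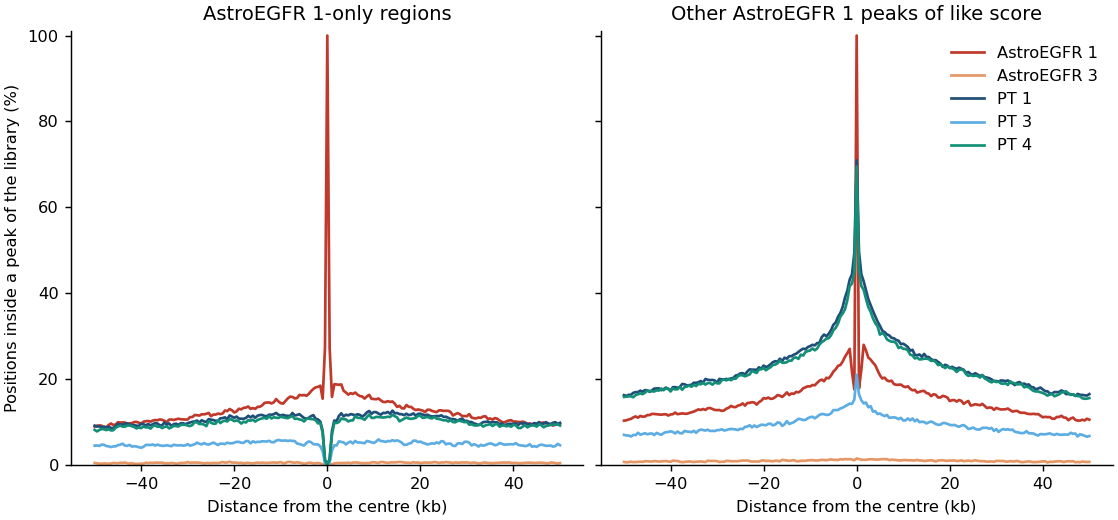
Percent of positions inside a peak of each library (vertical axis) against distance from the centre in kb (horizontal axis), for the 6405 AstroEGFR 1-only regions (left) and for 8289 other AstroEGFR 1 peaks of like score (right). On the left the PT lines dip to 0 at the centre, as the rule requires, and are nearly flat outside it (11.3% at 5 kb and 9.43% at 50 kb for PT 1), while on the right they rise towards the centre.

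AstroEGFR 1-only regions lay on every autosome, in unequal shares. Their share of the AstroEGFR 1 peaks was highest on chromosomes 14 (27.9%, Wilson 95% CI 24.8 to 31.3), 1 (26.8%, 572 of 2131 peaks) and 3 (26.7%, CI 24.6 to 28.8). It was lowest on chromosomes 15 (9.93%, CI 8.44 to 11.6), 11 (11.9%, CI 10.6 to 13.2) and 13 (113 of 942 peaks, CI 10.1 to 14.2). The share over the whole list was 18.8%. These intervals cover counting error only, because neighbouring peaks are not independent. The chromosomes named were picked as the extremes of the 19 autosomes, and no difference between chromosomes was tested.

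Chromosome 10 held more AstroEGFR 1-only regions than any other, 764 or 11.9%, at 5.94 per Mb against 0.939 to 3.81 on the other autosomes. It also held the most AstroEGFR 1 peaks, 3981, and 19.2% of them were AstroEGFR 1-only, close to the 18.8% of the whole list. The PT lists were dense there too, with 5993 peaks of PT 1, 5993 of PT 3 and 5797 of PT 4 and 73.6 merged PT regions per Mb, the most of any autosome. Chromosome X held 4 regions, chromosome Y 1 and unplaced sequences 13.

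The share tended to be lower where PT regions were dense. Chromosomes 14, 3 and 1, with the highest shares, had the fewest merged PT regions per Mb of the autosomes, 19.8, 23.7 and 24.6, against 60.4 on chromosome 11, 44.7 on chromosome 15 and 38.0 on chromosome 13. Chromosome 10, the densest, departed from this with its share of 19.2%. Over the 19 autosomes Pearson's r with PT regions per Mb was -0.64 and Spearman's rho -0.74. Set against PT regions for each AstroEGFR 1 peak, r was -0.47 and rho -0.49, and chromosome 14 then stood apart, with 3.43 PT regions for each of its 720 AstroEGFR 1 peaks. The rule uses PT peaks to set the share and both measures rest on the same lists, so these values are descriptive only.

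**Figure D4:**
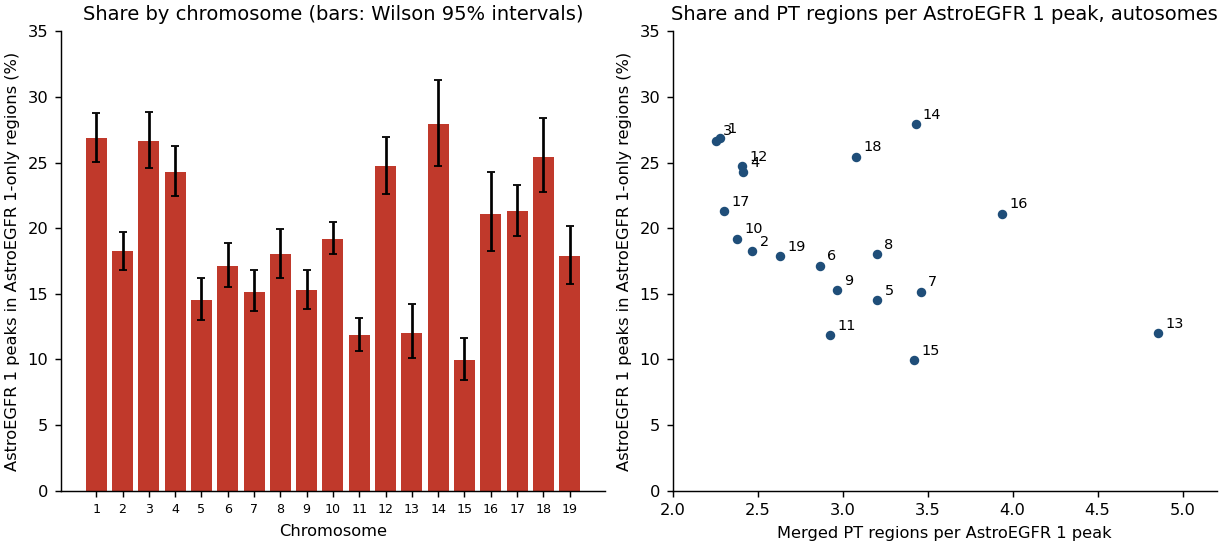
Left, percent of AstroEGFR 1 peaks that were AstroEGFR 1-only (vertical axis) on each autosome, with Wilson 95% intervals as bars. Right, the same percent against the number of merged PT regions per AstroEGFR 1 peak for the 19 autosomes, numbered by chromosome. Chromosomes 11, 13 and 15 lie lowest, and 14 lies highest, at 3.43 PT regions for each of its few AstroEGFR 1 peaks.

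Many of the regions lay near another. Joined where the gap between neighbours was at most 10 kb, 3329 of them (52.0%) fell into 1177 clusters of 2 or more, and 763 (11.9%) into 117 clusters of 5 or more. The largest cluster had 16 members. Of the 117 clusters of 5 or more, 36 held no PT peak within their span. The corresponding share in clusters was 59.6% for regions found only in PT 1, 55.7% for PT 3, 61.0% for PT 4 and 19.0% for AstroEGFR 3. AstroEGFR 3 had 526 such regions and the other sets 6405 to 17655, and more regions leave shorter gaps. No share in clusters was computed for the other AstroEGFR 1 peaks, so grouping is not shown to be particular to these regions.

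At a larger scale, 1332 windows of 1 Mb held an AstroEGFR 1-only region, with a median of 3. A set of 157 windows with 10 or more held 2506 of the regions (39.1%). The fullest lay on chromosome 10 from 87000001 to 88000000, where 46 of 107 AstroEGFR 1 peaks were AstroEGFR 1-only, although PT 1 had 91 peaks there, PT 3 had 47 and PT 4 had 50. The next lay on chromosome 18 from 55000001 to 56000000, with 44 of 92 peaks. Windows with such regions and no PT peak at all numbered 10 and held 14 of them. Merged PT regions numbered 19.8 to 73.6 per Mb over the autosomes, so few windows could lack one. Windows without a PT peak were not counted apart from these, and nothing is read from the number.

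The 5 clusters with the most base pairs in AstroEGFR 1-only regions are given in mm9 coordinates, as in the lists. The densest, chr3:108825119-108865946, held 14 regions that filled 19028 bp, or 46.6% of its span of 40828 bp. Their scores ran from 77.11 to 903.85. No other AstroEGFR 1 peak and 0 peaks of AstroEGFR 3, PT 1, PT 3 and PT 4 lay inside the span. Tumour peaks stood just outside it, the nearest being 627 bp from the closest region and 19561 bp from the most distant. With 50 kb added on either side, peaks of AstroEGFR 1 covered 52754 bp, those of PT 1 22211 bp, those of PT 3 1192 bp, those of PT 4 16935 bp and those of AstroEGFR 3 0 bp.

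The second cluster, on chromosome 18 from 55711565 to 55770974, held 13 regions with a best score of 745.0. Other peaks were mixed among them, 7 of AstroEGFR 1, 3 of PT 1, 11 of PT 3 and 2 of PT 4. Within 50 kb, coverage was 83836 bp for AstroEGFR 1, while PT 1 reached 14657 bp, PT 3 reached 25430 bp and PT 4 reached 12141 bp. AstroEGFR 1 was marked over more than 3 times the length of any tumour list. This follows in part from the choice of clusters by their AstroEGFR 1-only base pairs. Inside the span, peaks covered 2998 bp for PT 1, 9671 bp for PT 3 and 1613 bp for PT 4, so most of the tumour coverage lay beside the cluster.

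The third, on chromosome 10 from 87363593 to 87449599, had the most members, 16, in the fullest 1 Mb window. Its span of 86007 bp also held 12 other AstroEGFR 1 peaks, 11 peaks of PT 1, 13 of PT 3 and 0 of PT 4 or AstroEGFR 3. The tumour libraries differed among themselves inside the span, PT 4 being bare where PT 1 and PT 3 had peaks over 9737 and 10217 bp. Within 50 kb PT 4 peaks covered 6141 bp, those of PT 1 26251 bp and those of PT 3 18167 bp.

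The last 2 clusters differed again in which tumours had no peak inside the span. On chromosome 12, from 15522820 to 15592290, 12 regions with a best score of 839.8 stood among 8 other AstroEGFR 1 peaks, with 7 peaks of PT 1, 3 of PT 4 and 0 of PT 3. Coverage within 50 kb was 39756 bp for AstroEGFR 1, 5262 bp for PT 1, 2352 bp for PT 4 and 0 bp for PT 3 and AstroEGFR 3. On chromosome 2, from 92724800 to 92798042, 15 regions stood beside 4 other AstroEGFR 1 peaks and 2 peaks of AstroEGFR 3. The span held 1 peak of PT 3, 1 of PT 4 and 0 of PT 1. Coverage within 50 kb was 35562 bp for AstroEGFR 1, 10487 bp for PT 1, 9036 bp for PT 4, 7092 bp for PT 3 and 3380 bp for AstroEGFR 3. PT 1 was thus without a peak inside the span only. This was the only one of the 5 clusters in which AstroEGFR 3 had a peak.

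**Figure D5:**
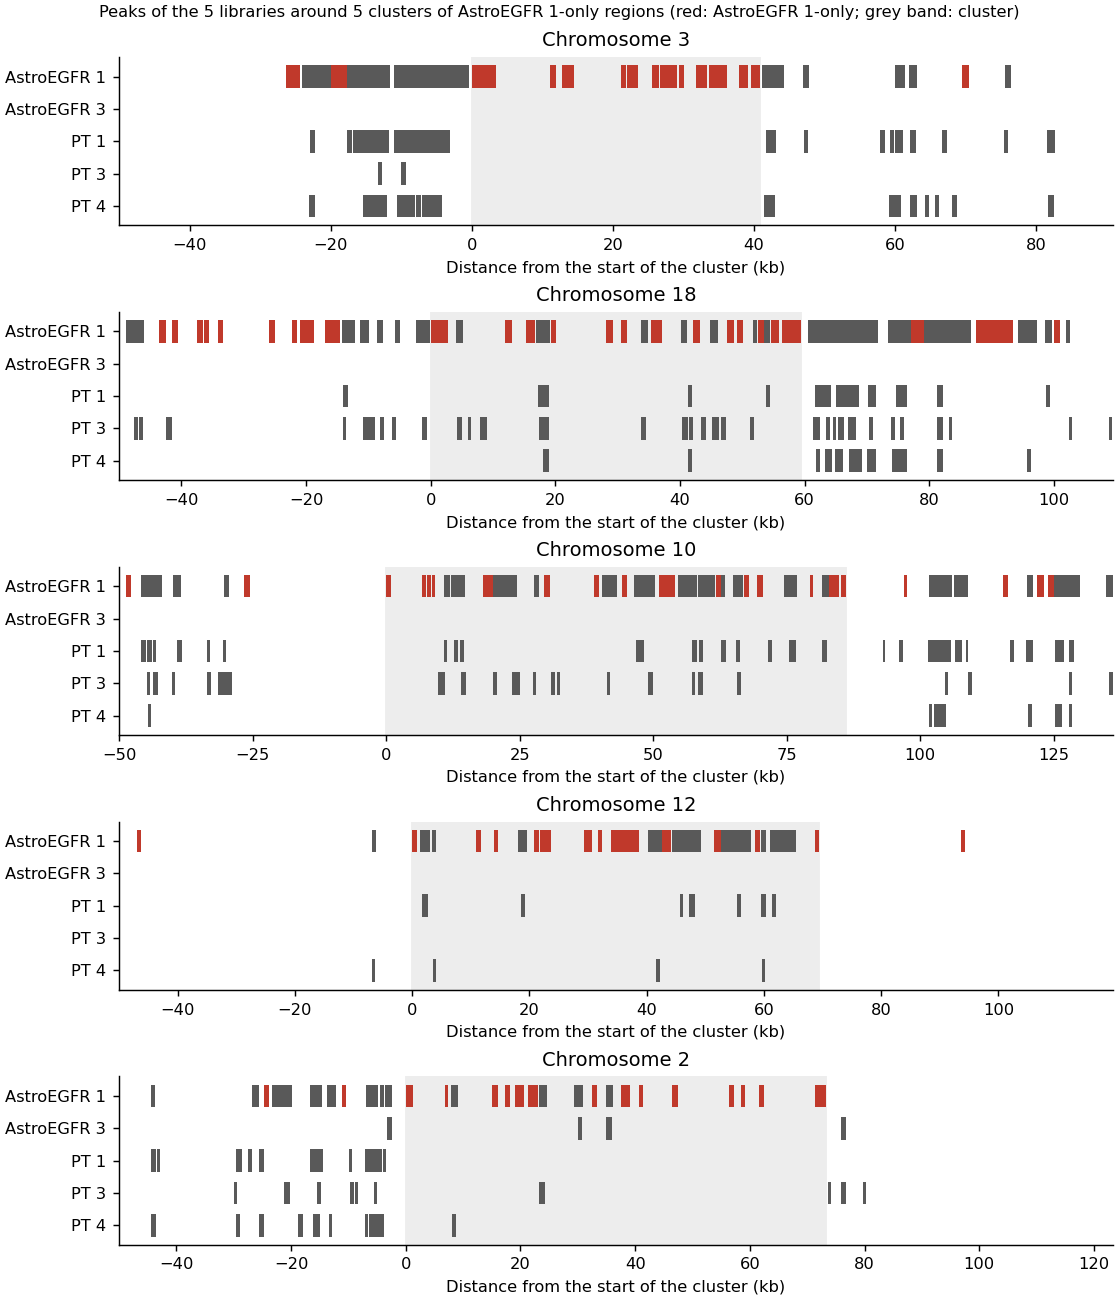
Peaks of the 5 libraries (rows) as blocks along the 5 clusters with the most base pairs in AstroEGFR 1-only regions, by distance in kb from the start of the cluster (horizontal axis), with 50 kb on either side. Red blocks are AstroEGFR 1-only regions, dark blocks other peaks, and the grey band the cluster, which on chromosome 3 holds 14 red blocks and no block of another library.

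The AstroEGFR 1-only region with the highest score lay on chromosome 1 from 24618212 to 24623182, spanned 4971 bp and had a score of 3100, a value that 183 peaks of AstroEGFR 1 and between 22 and 1110 peaks of each other list shared. Since so many peaks hold this value, it may be a fixed value, although it is not the top of the scale. The highest score of another AstroEGFR 1 peak was 3228.29. The value of 3100 gives no measure of how far the region stood above the second, at 1171. The nearest AstroEGFR 1 peak shared with another list was 847289 bp away. Within 50 kb of the region AstroEGFR 1 had no further peak, whereas PT 1 had 2 peaks, PT 3 had 2 and PT 4 had 3. Whether this sequence resembles other parts of the genome, which could add reads to it, was not checked here, so its score may not measure the mark.

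The next in score lay on chromosome 12 from 106197593 to 106202572, the widest region of all at 4980 bp. Its nearest peaks were 52909 bp away for PT 1, 51802 bp for PT 3, 53233 bp for PT 4 and 84455 bp for AstroEGFR 3, and no list other than AstroEGFR 1 had a peak within 50 kb. The third, on chromosome 12 from 33829673 to 33832244 with a score of 1163, stood 17465 bp from a PT peak in surroundings marked in every list. Coverage within 50 kb of it was 43529 bp for AstroEGFR 1 and 838 bp for AstroEGFR 3, and the tumours had 25730 bp (PT 1), 9689 bp (PT 3) and 25515 bp (PT 4). The fourth (chr2:22442592-22445892, score 1142) was isolated. Its nearest peak of PT 3 lay 122753 bp away, of PT 4 460898 bp and of PT 1 982548 bp. The nearest AstroEGFR 1 peak shared with another list was 1705545 bp away.

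The fifth, on chromosome 12 from 74906580 to 74911331 with a score of 1127, lay 338 bp from another AstroEGFR 1 peak and 1305 bp from a PT 1 peak. Among the 5 widest regions, 3 had already been named by score. The remaining 2 were on chromosome 12 from 15556750 to 15561549 (4800 bp), inside the fourth cluster, and on chromosome 19 from 37327865 to 37331522 (3658 bp), 143 bp from a PT 3 peak and 2730 bp from an AstroEGFR 3 peak. The strong regions thus included blocks at the edge of shared marking as well as isolated peaks.

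The 5 regions farthest from tumour peaks had widths of 461 to 841 bp, beside the median of 818 bp over all AstroEGFR 1-only regions. The farthest, on chromosome 17 from 19795355 to 19795862, had a score of 116.07 and lay 1390020 bp from the nearest PT peak. The second, on chromosome 4 from 93510934 to 93511394, had a score of 71.18, and the third, on chromosome 5 from 19388423 to 19388990, one of 73.22. The remaining 2, on chromosome 7 from 111510884 to 111511724 and from 111513321 to 111514123, were neighbours with scores of 110.34 and 70.89, at 799905 and 797506 bp from PT 1. None of the 5 had a peak of another library within 50 kb, and 3 of them stood within 5 of the lowest score of their list.

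At the limit of the rule, values hardly differed on either side. The regions closest to a PT peak lay 1 bp from PT 4 on chromosome 5 (36753178 to 36753876, score 78.21), 2 bp from PT 1 on chromosome 2 (102451472 to 102452335, score 112.89) and 2 bp from PT 1 on chromosome 9 (47047234 to 47048099, score 106.74). Of the AstroEGFR 1 peaks outside it that shared bases with a PT peak, the 3 with the fewest shared 2 bp. They met PT 4 on chromosome 2 (164164621 to 164165740, score 117.74) and PT 3 on chromosomes 10 (67291711 to 67292312, score 80.11) and 7 (135369448 to 135370105, score 72.41). The 328 regions within 100 bp of a PT peak had a median width of 804 bp and a median score of 94.25, and the 285 AstroEGFR 1 peaks that shared 1 to 100 bp with PT peaks had 818 bp and 96.42.

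The number of AstroEGFR 1-only regions depended on the length of the tumour lists. When PT 1 and PT 4 were cut to the strongest peaks that covered as much as AstroEGFR 1, it rose from 6405 to 13460. Merging of peaks up to 1000 or 5000 bp apart left 3252 or 1249, and scores of at least 100 in every list left 4162. With only the strongest 3722 peaks of each list there were 1017, or 27.3% of those of AstroEGFR 1.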

How the data were processed

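H3K27me3 was measured by chromatin immunoprecipitation and sequencing in 5 libraries (AstroEGFR 1 and 3, PT 1, 3 and 4); 3 input samples (2 AstroEGFR, 1 PT) were not used here. Groups and replicate numbers came from the sample labels. Per the submitters' processing notes, the authors used Bowtie 0.12.9, MACS 1.4.1 and build mm9; settings, inputs and read numbers were not given in the sources used here, so depth is unknown. Each deposited list gives position and a score per peak, which in this version of MACS is the p-value as −10 times its log10. Scores were ranked within each list. Between lists they were compared only for the floor of 75.69, the minimum of 100 and the shared value of 3100. The reference genes at hand were on another build, so no gene is named and no sequence is printed, and the planned counts at start sites and of sequence composition were not run.

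Lists were merged and distances measured, as the number of bases between 2 peaks, with Python 3.11.15, pandas 2.3.3, numpy 2.4.6 and scipy 1.17.1, checked on lists with planted classes and against bedtools 2.31.1. Coordinates are 1-based. Members, lists and rules were chosen with earlier results of these data known. The named regions are the 5 highest in score, the 5 widest, the 5 farthest from PT and the 5 clusters with the most base pairs. At the limit of the rule they are the 3 regions nearest to PT and the 3 other AstroEGFR 1 peaks sharing the fewest bases with PT. Peaks that only touched a PT peak were not named. No test was made, because membership was read from the same lists and rests on 1 library. Figures were drawn with matplotlib 3.10.9.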

Additional observations from a re-analysis of the deposited data

How the results depend on the processing

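No paired analysis was possible because the results come from no test and the regions belong to a single library; the labels do not tie equal replicate numbers. In order, the main values were 6405 regions, 18.8% of AstroEGFR 1 peaks, a median width of 818 bp, a median score of 93.95, a median distance to PT of 1842 bp and 11.9% on chromosome 10. With scores of at least 100 in every list they were 4162, 17.6%, 1051 bp, 135.1, 2359 bp and 13.0%. In the upper 50% of each list they were 2833, 16.7%, 1295 bp, 179.9, 2969 bp and 13.9%. With the strongest 3722 peaks of each list they were 1017, 27.3%, 3045 bp, 591.0, 17916 bp and 21.6%. With PT 1 and PT 4 cut to as many covered base pairs as AstroEGFR 1 they were 13460, 39.6%, 868 bp, 104.2, 3827.5 bp and 11.1%. With a minimum of 100 for AstroEGFR 1 alone, the first 4 were 2827, 11.97%, 1036 bp and 133.0. Filtering by score raises width and score by construction, and merging removes the regions nearest to PT. With a merging gap of 1000 bp the number was 3252, the share 10.6%, the width 826 bp, the distance 5062 bp and the share on chromosome 10 10.3%. With a gap of 5000 bp the 6 values were 1249, 4.64%, 830 bp, 91.17, 16272 bp and 8.33%. Leaving out each other replicate in turn gave 18.9% to 26.4% of peaks, 818 to 835 bp, scores of 93.95 to 97.79, 1841 to 2336 bp and 10.8% to 13.3% on chromosome 10, and 6431 to 8997 regions, with 8997 without PT 1, 8604 without PT 4 and 7273 without PT 3; fewer lists can only add regions. An AstroEGFR 1 score of at least 75.69, added after seeing the data, gave 16.9%, 871 bp and 103.5. A shared base in place of touching, and autosomes alone, gave 6413 and 6387 regions, with median widths of 818 bp and median distances of 1839 and 1845 bp. Clusters numbered 1177, and 1004 or 1289 with gaps of 5 or 20 kb. Windows around start sites were not run. Unknown depth limits every statement that a region lacked a peak.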
